A study of Saccharomyces cerevisiae with 18 samples.

Results

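The phosphate regulon of budding yeast is described here through 10 genes, chosen by name: the acid phosphatase genes PHO5, PHO11 and PHO12, the alkaline phosphatase gene PHO8, the transporter genes PHO84 and PHO89, SPL2, and the polyphosphate genes VTC1, VTC3 and VTC4. They are 10 of the 6650 named ORFs of the expression table. All strains were haploid BY4741 of Saccharomyces cerevisiae, a laboratory strain of mating type a. Per the labels, cells were grown on xylulose, a pentose sugar, in rich medium and harvested in log phase. At RXT3 the gene was deleted, replaced by the allele of strain T73 or replaced by the allele of strain CLIB215, and the same 3 edits were made at PHO23. The labels list 18 libraries in 6 groups of 3, but the table holds 1 column per strain, with no replicate number. Unmodified BY4741 is not analysed here, so every strain in the comparisons carries an edit at 1 locus.

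Each value is the authors' pooled log value of a strain. Values lie on both sides of 0 and are read as relative, but none of the 4956 ORFs with a value in all 6 columns averages 0 over them, and what the values are relative to is not stated. Of the 208 ORFs with a value in 1 column only, 126 stood at 0. Where that comes from was not tested. The base is not stated either and is read here as 2. A value is neither an expression level nor a change against an unedited strain. Levels of different genes cannot be compared from it, and only differences between strains for the same gene are read. With 1 value per strain, no difference has a replicate check, and no error or test can be attached to any of them. A culture average also cannot tell fewer expressing cells from less RNA per cell. A difference of at least 1 unit, which is 2-fold if the base is 2, is called past the size rule, and the share of all ORFs past it is given beside each count. That share was not recomputed for columns brought to 1 SD, for median-centred columns or for complete ORFs only.

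When phosphate is plentiful, the cyclin-dependent kinase Pho85 with its cyclin Pho80 phosphorylates the transcription factor Pho4 and keeps it out of the nucleus. In phosphate starvation the inhibitor Pho81 blocks the kinase, and Pho4, with the homeodomain factor Pho2, turns on genes for phosphate scavenging, uptake and storage. Rxt3 and Pho23 are subunits of Rpd3L, a histone deacetylase complex, and Pho23 is known as a regulator of PHO5.

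Pho4 binds E-box motifs, and the upstream stretches that hold them are shown for PHO5 and PHO84, the classic targets, and for VTC1 and VTC4, whose values ran closest together. Bases are from the RefSeq assembly R64, the build that the submitters' processing notes name, and read 5′ to 3′ on the strand of the gene. Capitals mark the palindrome CACGTG and its variant CACGTT, which reads AACGTG where it lies on the other strand. The PHO5 stretch is chrII:431152-431351, the PHO84 stretch chrXIII:26051-26250, the VTC4 stretch chrX:413500-413599, all on the minus strand, and the VTC1 stretch is chrV:302606-302705 on the plus strand.
PHO5: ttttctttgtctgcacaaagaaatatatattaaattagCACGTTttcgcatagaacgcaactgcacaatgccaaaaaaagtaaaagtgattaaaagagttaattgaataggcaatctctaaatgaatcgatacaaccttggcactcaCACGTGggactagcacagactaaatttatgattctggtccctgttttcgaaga
PHO84: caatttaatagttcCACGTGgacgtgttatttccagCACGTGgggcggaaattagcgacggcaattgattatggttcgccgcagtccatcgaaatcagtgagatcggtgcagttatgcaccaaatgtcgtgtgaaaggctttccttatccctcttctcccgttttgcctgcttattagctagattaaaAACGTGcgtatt
VTC1: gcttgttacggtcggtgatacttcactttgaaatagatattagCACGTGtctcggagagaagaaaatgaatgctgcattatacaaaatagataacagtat
VTC4: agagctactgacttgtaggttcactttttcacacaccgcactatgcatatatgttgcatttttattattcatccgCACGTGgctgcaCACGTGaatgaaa

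In PHO5 the variant motif begins 362 bases and the palindrome 253 bases before the start codon. PHO84 has palindromes at 436 and 414 bases and the variant at 262 bases. VTC1 has a palindrome at 157 bases, and VTC4 has palindromes at 125 and 113 bases. Over the 500 bases before the start codon, searched on both strands, all 10 genes hold at least 1 of the 2 motifs, 9 of them CACGTG and 7 CACGTT. Among the 6000 protein-coding genes with such a window, 21.0% hold either motif, 6.23% hold CACGTG and 16.0% hold CACGTT. The gene without CACGTG in this window is PHO8, with the variant at 380 bases. SPL2 holds the most palindromes, at 361, 147, 90 and 31 bases. The genes were chosen by name, as genes of the regulon that Pho4 turns on. Their share with Pho4 motifs is thus not independent of that choice. The motifs describe the genes and not the edits.

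**Figure D1:**
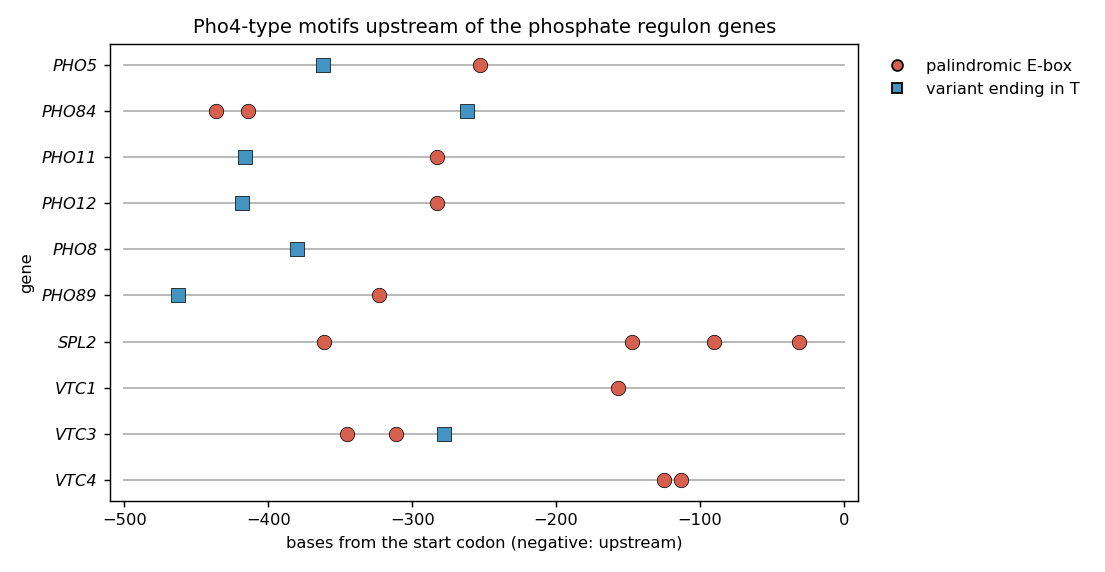
Positions of the 2 motifs (circles, CACGTG; squares, CACGTT on either strand) upstream of the 10 genes, in bases from the start codon. Each gene has at least 1 motif within 500 bases, and SPL2 has 4 palindromes.

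Of the 10 genes, 9 had a value in at least 1 strain and 5 had a value in all 6: PHO5, PHO8, VTC1, VTC3 and VTC4. PHO89, the sodium-dependent phosphate transporter gene (YBR296C, chromosome II, 796798 to 798522, minus strand), had no value in any strain, as had 933 of the 6650 ORFs. The number of the 10 genes with a value was 7 in the RXT3 deletion, 9 with the RXT3 allele of T73 and 6 with that of CLIB215. It was 5 in the PHO23 deletion, 9 with the PHO23 allele of T73 and 6 with that of CLIB215. Over all ORFs the share with a value varied little, between 79.2% in the RXT3 deletion and 81.1% with the RXT3 allele of T73. The minimum that the authors set for a value is not given in the sources used here, so a missing value is reported as such and not as an absence of expression.

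The labels contradict themselves for 3 of the 6 groups, where title and genotype field disagree, and the titles are followed here because they are the column names. The genotype field gives the titled RXT3 T73 strain as a PHO23 deletion and the titled RXT3 CLIB215 strain as RXT3 with the T73 allele. It gives the titled PHO23 deletion as RXT3 with the CLIB215 allele. PHO23 itself had no value in the column titled PHO23 deletion and -0.07 in the column that the genotype field gives that name. RXT3 had -0.05 in the column titled RXT3 deletion, within its range of -0.36 to 0.23 over the 6 strains, so that deletion was not visible. LEU2 and MET17, which BY4741 lacks, had no value in any strain, and URA3, which it also lacks, had a value only with the PHO23 allele of T73. HIS3, of which BY4741 carries a partial deletion, had values in all 6 strains, from -0.64 to 0.49. The a-factor genes MFA1 and MFA2 had values in all strains, while the alpha-factor genes MFALPHA1 and MFALPHA2 had 1 value each and STE3, the alpha-cell receptor gene for a-factor, had values in 2 strains, those of RXT3 with the T73 and CLIB215 alleles. The columns of the PHO23 deletion and the PHO23 allele of CLIB215 were wider than the others, with SDs over the 4956 complete ORFs of 0.421 and 0.422 against 0.282 to 0.319.

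**Figure D2:**
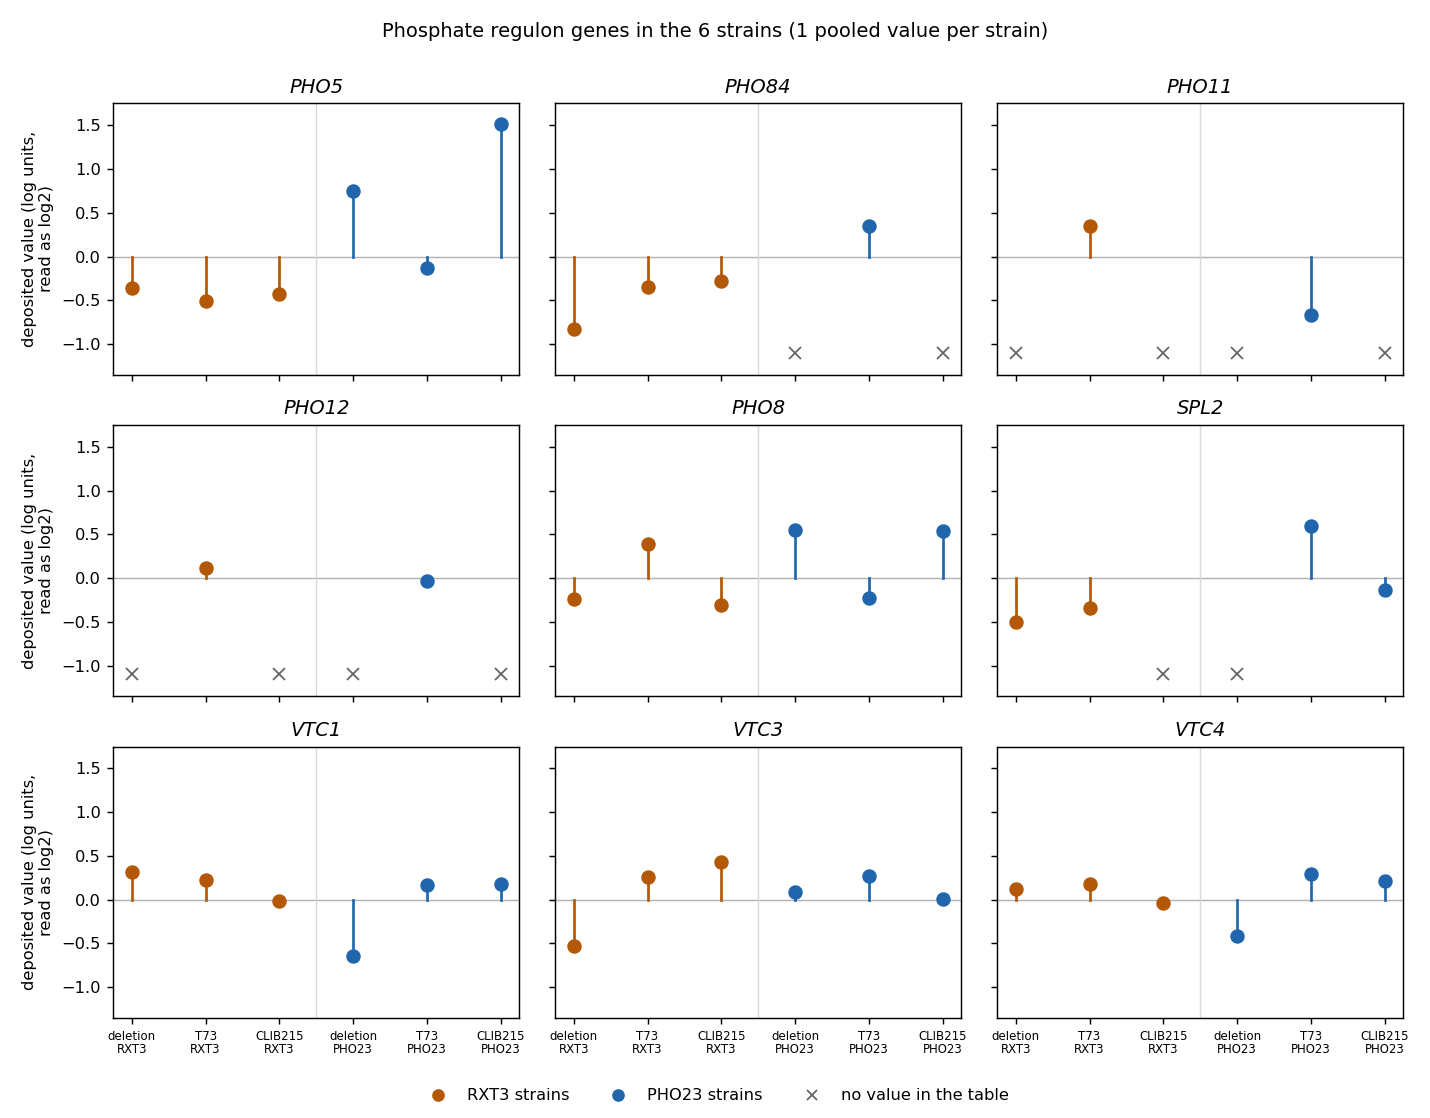
Deposited values (log units, read as log2) of the 9 genes with any value, 1 point per strain, with crosses where the table has no value. PHO5 stood at 0.75 in the PHO23 deletion and at 1.52 with the PHO23 allele of CLIB215. PHO84 had no value in those 2 strains. In the other 4 strains PHO5 lay between -0.50 and -0.13.

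The acid phosphatases are secreted enzymes that free phosphate from organic molecules outside the cell. PHO5 (YBR093C, chromosome II, 429548 to 430951, minus strand), which codes for the main repressible enzyme, had the widest range of the complete members, 2.02 units. Its values were -0.36 in the RXT3 deletion, -0.50 with the RXT3 allele of T73 and -0.43 with the RXT3 allele of CLIB215. They were 0.75 in the PHO23 deletion, -0.13 with the PHO23 allele of T73 and 1.52 with the PHO23 allele of CLIB215. PHO5 was thus highest with the CLIB215 allele of PHO23, next highest in the PHO23 deletion, and lower in the other 4 strains, which lay between -0.50 and -0.13.

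PHO11 (YAR071W, chromosome I, 225460 to 226863) and PHO12 (YHR215W, chromosome VIII, 552099 to 553502) code for further secreted acid phosphatases of this family. Both had values in the same 2 strains, those titled with a T73 allele. By the genotype field, the one titled RXT3 T73 is a PHO23 deletion. PHO11 had 0.35 with the RXT3 allele of T73 and -0.67 with the PHO23 allele of T73. PHO12 had 0.11 with the RXT3 allele of T73 and -0.04 with the PHO23 allele of T73. This pattern of values occurred in 13 ORFs of the table. The T73 columns of RXT3 and PHO23 also held the most values over all ORFs, 5391 and 5377, and the part of this in the pattern was not tested.

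PHO11 and PHO12 are near copies, and PHO5 and PHO3 are less alike. This bears on how far reads of these genes can be told apart. The last 60 coding bases are shown with capitals where a base differs from PHO5, for PHO5 (chrII:429548-429607, minus strand), its neighbour PHO3 (chrII:427698-427757, minus strand), PHO11 (chrI:226804-226863, plus strand) and PHO12 (chrVIII:553443-553502, plus strand).
PHO5: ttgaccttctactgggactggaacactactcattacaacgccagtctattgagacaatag
PHO3: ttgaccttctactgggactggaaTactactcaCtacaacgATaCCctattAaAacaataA
PHO11: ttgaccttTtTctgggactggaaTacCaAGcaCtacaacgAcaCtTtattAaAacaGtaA
PHO12: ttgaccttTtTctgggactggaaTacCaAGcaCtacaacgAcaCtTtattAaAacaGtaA

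PHO11 and PHO12 differ at 4 of 1404 coding bases and share their last 60 bases, so values given to either may hold reads of both. How the authors treated reads that match both copies is not given in the sources used here. PHO5 is 86.5% identical to PHO3 and 83.6% to PHO11 over the coding sequence, with 22 and 28 differing bases in the last 300. PHO3 (YBR092C), which codes for the constitutive acid phosphatase, had -0.08 in the RXT3 deletion, 0.56 with the RXT3 allele of T73 and -0.23 with that of CLIB215. In the PHO23 strains it had 0.93 in the deletion, 0.21 with the allele of T73 and 0.77 with that of CLIB215. PHO3 and PHO5 were thus both highest in the PHO23 deletion and with the PHO23 allele of CLIB215, in the opposite order. Reads shared between these neighbours were not tested for.

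Phosphate enters the cell through transporters of high and low affinity. PHO84 (YML123C, chromosome XIII, 24037 to 25800, minus strand) codes for the high-affinity proton-coupled transporter of the plasma membrane. Its values were -0.83 in the RXT3 deletion, -0.35 with the RXT3 allele of T73, -0.27 with the RXT3 allele of CLIB215 and 0.34 with the PHO23 allele of T73. It had no value in the PHO23 deletion and none with the PHO23 allele of CLIB215, the strains where PHO5 was highest. Of the 116 ORFs with exactly 4 values, 29 had this pattern. DIA3 (YDL024C), which codes for a protein of the acid phosphatase family, was another of them. An antisense RNA is annotated across all 1764 bases of PHO84 on the opposite strand. Whether the counting used strand is not given in the sources used here. It is thus not known whether the values of PHO84 also hold reads of its antisense RNA.

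SPL2 (YHR136C, chromosome VIII, 374654 to 375100, minus strand) codes for a small protein that lowers low-affinity phosphate uptake. It had -0.50 in the RXT3 deletion, -0.34 with the RXT3 allele of T73, 0.60 with the PHO23 allele of T73 and -0.14 with the PHO23 allele of CLIB215. The RXT3 allele of CLIB215 and the PHO23 deletion had no value, a pattern found in 2 ORFs. SPL2 and PHO84 were both highest with the PHO23 allele of T73 and lowest in the RXT3 deletion among the strains that had a value. Both had a value only in the RXT3 deletion and with the T73 alleles of RXT3 and PHO23, so this likeness rests on those strains.

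PHO8 (YDR481C, chromosome IV, 1418550 to 1420250, minus strand) codes for the alkaline phosphatase of the vacuole. It had -0.24 in the RXT3 deletion, 0.39 with the RXT3 allele of T73 and -0.31 with the RXT3 allele of CLIB215. It had 0.55 in the PHO23 deletion, -0.23 with the PHO23 allele of T73 and 0.54 with the PHO23 allele of CLIB215. PHO8 thus stood higher in 3 strains, the PHO23 deletion, PHO23 with the CLIB215 allele and RXT3 with the T73 allele, and lower in the other 3.

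The VTC complex makes polyphosphate, the phosphate store of the vacuole. Vtc4 is its catalytic subunit, Vtc3 a regulatory subunit that senses inositol pyrophosphates, and Vtc1 a small membrane subunit. VTC1 (YER072W, chromosome V, 302806 to 303195, plus strand) had 0.31 in the RXT3 deletion, 0.23 with the RXT3 allele of T73 and -0.01 with the RXT3 allele of CLIB215. In the PHO23 strains VTC1 had -0.64 in the deletion, 0.17 with the allele of T73 and 0.18 with that of CLIB215. VTC1 was lowest in the PHO23 deletion, and the other strains lay between -0.01 and 0.31.

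VTC4 (YJL012C, chromosome X, 411234 to 413399, minus strand) had 0.12 in the RXT3 deletion, 0.18 with the RXT3 allele of T73 and -0.04 with the RXT3 allele of CLIB215. It had -0.41 in the PHO23 deletion, 0.30 with the PHO23 allele of T73 and 0.22 with the PHO23 allele of CLIB215. Among the 10 pairs of complete members, the profiles of VTC1 and VTC4 were the closest, with a root mean square distance over the 6 strains of 0.13 units after each was centred on its mean. The other 9 pairs ranged from 0.40 to 0.90 units.

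VTC3 (YPL019C, chromosome XVI, 514511 to 517018, minus strand) did not share that profile. It had -0.52 in the RXT3 deletion, 0.26 with the RXT3 allele of T73 and 0.44 with the RXT3 allele of CLIB215. It had 0.09 in the PHO23 deletion, 0.27 with the PHO23 allele of T73 and 0.01 with the PHO23 allele of CLIB215. VTC3 was lowest in the RXT3 deletion, and the other 5 strains lay between 0.01 and 0.44.

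The 3 PHO23 strains were compared with each other to ask what loss of the gene and variation in it do to these genes. Between the T73 and CLIB215 alleles of PHO23, PHO5 was lower with the T73 allele by 1.65 units (difference -1.65), a 3.14-fold lower value if the base is 2. By size this was the difference ranked 53 of 5142 ORFs with both values. Of the 6 measured members PHO5 alone passed the size rule, which 8.83% of ORFs passed. The genotype field names both of these columns as the titles do. With each column brought to 1 SD the PHO5 difference was -1.37. PHO23, the edited gene and not a member, was itself higher with the T73 allele by 1.23, past the size rule. Whether this bears on PHO5 was not tested.

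In the same comparison PHO8 differed by -0.77 and SPL2 by 0.74. VTC1, VTC4 and VTC3 differed by -0.01, 0.08 and 0.26. The median over the 6 members was 0.03, beside 0.05 over all ORFs, with 3 members above 0 and 3 below.

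Between the PHO23 deletion and the T73 allele of PHO23, none of 5 measured members passed the size rule, beside 8.56% of ORFs. PHO5 was higher in the deletion by 0.89 and PHO8 by 0.78, while VTC1 differed by -0.81, VTC4 by -0.71 and VTC3 by -0.18. PHO5 and PHO8 were thus higher and these VTC genes lower in the deletion. All lay within the central 95% of ORFs, which ran from -1.14 to 1.18, and 71.8% of ORFs differed by at least as much as VTC3. PHO11 and PHO12 had no value in the deletion. The median over the members was -0.18, beside -0.04 over all ORFs. By the genotype field's naming, the PHO5 difference was -0.37, that of VTC1 0.06 and that of PHO8 0.62.

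Between the PHO23 deletion and the CLIB215 allele of PHO23, again none of 5 members passed, beside 3.40% of ORFs. VTC1 differed by -0.83, PHO5 by -0.76 and VTC4 by -0.63, while PHO8 differed by 0.01 and VTC3 by 0.08. PHO5 was thus lower in the deletion than with the CLIB215 allele, although it was higher than with the T73 allele. The median was -0.63, beside 0.01 over all ORFs. Under the genotype field's names PHO5 differed by -2.02 and VTC1 by 0.04. These 3 comparisons share columns, so their differences are not independent.

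Among the RXT3 strains every measured member differed by less than 1 unit. Between the RXT3 deletion and the RXT3 allele of T73, none of 7 members passed the size rule, beside 3.06% of ORFs. VTC3 differed by -0.78, PHO8 by -0.63 and PHO84 by -0.48, and PHO5 by 0.15. The median was -0.16, beside 0.01 over all ORFs. VTC3 differed by -0.96, PHO84 by -0.55, PHO8 by 0.07 and PHO5 by 0.08 under the genotype field's names.

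Between the RXT3 deletion and the RXT3 allele of CLIB215, none of 6 members passed, beside 2.46% of ORFs. VTC3 differed by -0.96, ranked 161 of 5173 ORFs by size, and PHO84 by -0.55. With each column brought to 1 SD, VTC3 passed the size rule, at -1.08, but the share of ORFs past it was not recomputed. VTC3 and PHO84 were thus lower in the RXT3 deletion than with either RXT3 allele, if the columns are named by their titles. PHO5 differed by 0.08, and the median was 0.07, beside 0.02 over all ORFs. This PHO5 difference was -1.11 under the genotype field's names. That of VTC3 was then -0.61, and PHO84 had no value for the CLIB215 allele.

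Between the T73 and CLIB215 alleles of RXT3, none of 6 members passed, beside 2.41% of ORFs. PHO8 was higher with the T73 allele by 0.70, ranked 487 of 5231 ORFs. The remaining 5 members lay between -0.18 and 0.24, PHO5 at -0.07 among them. The median was 0.07, beside 0.01 over all ORFs. Under the genotype field's names PHO5 differed by -1.19 and PHO8 by -0.86.

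**Figure D3:**
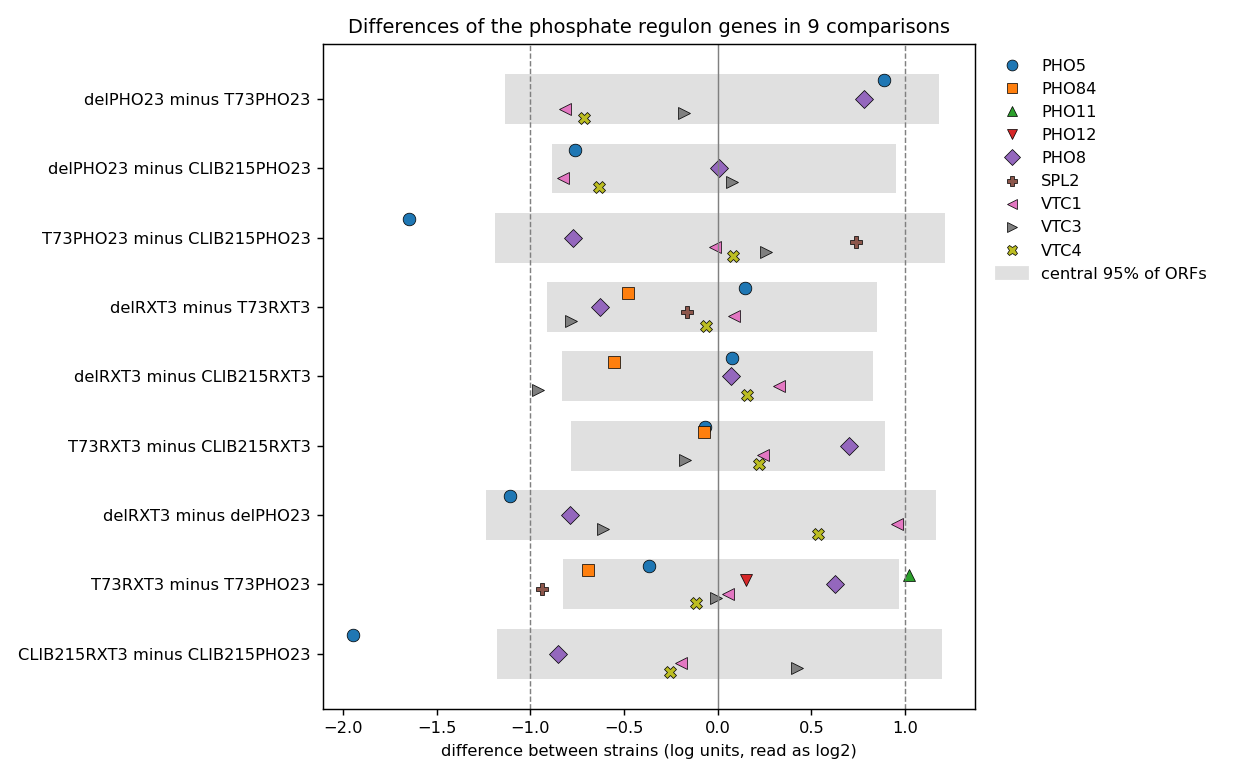
Differences between strains (log units, read as log2) of the members with a value in both columns, for 9 comparisons, with grey bars for the central 95% of all ORFs and dashed lines at 1 unit in each direction; del stands for the deletion, and heights within a row only separate the points. PHO5 lies past the lower line in 3 comparisons and PHO11 just past the upper line in 1. For delRXT3 minus delPHO23, PHO5 still lies within the grey bar. Most other points also lie within the grey bars.

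The same kind of edit was also compared across the loci. With the CLIB215 alleles, PHO5 was lower in the RXT3 strain than in the PHO23 strain by 1.95 units (difference -1.95), ranked 31 of 5148 ORFs by size. Of the 5 measured members PHO5 alone passed the size rule, beside 8.97% of ORFs. PHO8 differed by -0.85, and the median was -0.25, beside 0.03 over all ORFs. Under the genotype field's names the PHO5 difference was -0.76.

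Between the deletions of RXT3 and PHO23, PHO5 differed by -1.11 and VTC1 by 0.96. Of the 5 measured members PHO5 alone passed the size rule, which 9.13% of ORFs passed. PHO8 differed by -0.79, VTC3 by -0.61 and VTC4 by 0.54, and the median was -0.61, beside 0.03 over all ORFs. The PHO5 difference was -0.99 with each column brought to 1 SD, and 0.15 under the genotype field's names.

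With the T73 alleles, 9 members had a value in both columns. PHO11 was higher in the RXT3 strain than in the PHO23 strain by 1.02 and was the only member past the size rule, beside 3.33% of ORFs. Its near-identical copy PHO12 differed by 0.15. SPL2 differed by -0.94, PHO84 by -0.69, PHO5 by -0.37 and PHO8 by 0.62, and the VTC genes lay between -0.12 and 0.06. With each column brought to 1 SD, SPL2 also passed the size rule, at -1.06, but the share of ORFs past it was not recomputed. The median was -0.01, as it was over all ORFs. By the genotype field, none of 6 measured members passed for the T73 alleles, beside 2.11% of ORFs. The columns compared above are then the PHO23 deletion and the PHO23 allele of T73.

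Over the 9 comparisons, members had a value in both columns in 54 of 90 cases. Of these, 4 passed the size rule, PHO5 in 3 comparisons and PHO11 in 1, beside 2.41% to 9.13% of ORFs in the single comparisons. All 3 comparisons in which PHO5 passed have the PHO23 deletion or the PHO23 allele of CLIB215 on 1 side, and those columns were also the wider ones.

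The other genes of phosphate metabolism were taken from 4 lists with 27 genes, 22 of them with a value in all 6 strains. PHO4, the gene of the central transcription factor, had 0.37 in the RXT3 deletion, 0.53 with the RXT3 allele of T73 and 0.11 with that of CLIB215. In the PHO23 strains PHO4 had -0.83 in the deletion, 0.29 with the allele of T73 and -0.56 with that of CLIB215. PHO4 was thus lowest in the strains where PHO5 was highest. Its difference between the PHO23 deletion and the T73 allele was -1.12, and of 23 measured listed genes it alone passed the size rule there, beside 8.56% of ORFs. With the other naming, from the genotype field, this PHO4 difference was 0.24.

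PHO2, the gene of the partner factor, had 0.49 in the RXT3 deletion, -0.31 with the RXT3 allele of T73 and 0.77 with the RXT3 allele of CLIB215. It had -0.20 in the PHO23 deletion, 0.08 with the PHO23 allele of T73 and -0.34 with the PHO23 allele of CLIB215. Between the T73 and CLIB215 alleles of RXT3, PHO2 differed by -1.07, and of 24 measured listed genes it alone passed the size rule, beside 2.41% of ORFs. With the CLIB215 alleles, RXT3 minus PHO23, it differed by 1.11 and alone passed among 23, beside 8.97% of ORFs. These PHO2 differences were 0.97 and 0.14 under the genotype field's names.

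VIP1, which codes for an inositol pyrophosphate kinase, differed by -1.27 between the deletions of RXT3 and PHO23. PHO4, with 1.20, and PHO3, with -1.01, also passed the size rule in this comparison, among 22 listed genes and beside 9.13% of ORFs. VIP1 differed by -0.64, PHO4 by -0.16 and PHO3 by -0.64 under the genotype field's names, and none of them passed. The cyclin gene PHO80, the kinase gene PHO85 and the inhibitor gene PHO81 passed in none of the 9 comparisons under either naming. PHO80 came closest, with 0.90 for the CLIB215 alleles, RXT3 minus PHO23. PHM8, a nucleotide phosphatase gene that responds to phosphate, differed by -1.03 between the T73 alleles, RXT3 minus PHO23, and alone passed among 24, beside 3.33% of ORFs. The PHM8 difference was -0.23 under the genotype field's names.

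In the comparisons of the PHO23 deletion with the CLIB215 allele, of the PHO23 alleles with each other, and of the RXT3 deletion with either RXT3 allele, none of the 23 or 24 measured listed genes passed, beside 2.46% to 8.83% of ORFs. With columns named by the genotype field, listed genes passed in 4 comparisons. PHO4 and PHM8 passed between the PHO23 deletion and the CLIB215 allele, at 1.09 and -1.46, beside 6.92% of ORFs, and PHM8 between the PHO23 deletion and the T73 allele, at -1.03, beside 3.33%. PHO4, VIP1 and PHO3 passed between the RXT3 deletion and the CLIB215 allele, at 1.20, -1.27 and -1.01, beside 9.13%, and PHO3 between the RXT3 alleles, at -1.15, beside 9.24%. Of the low-affinity transporter genes, PHO90 had 0.67 in the PHO23 deletion, 0.14 with the PHO23 allele of T73 and 0.40 with that of CLIB215. PHO87 and PHO91 had ranges of 0.67 and 0.48 over the 6 strains, with no difference past 1 unit. The polyphosphatase genes PPN1, PPN2 and PPX1 had ranges of 0.40, 0.40 and 0.49. GIT1, a glycerophosphoinositol permease gene, and PHM6 had no value in any strain. Over the 27 genes, the medians of the 9 comparisons lay between -0.13 and 0.14.

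**Figure D4:**
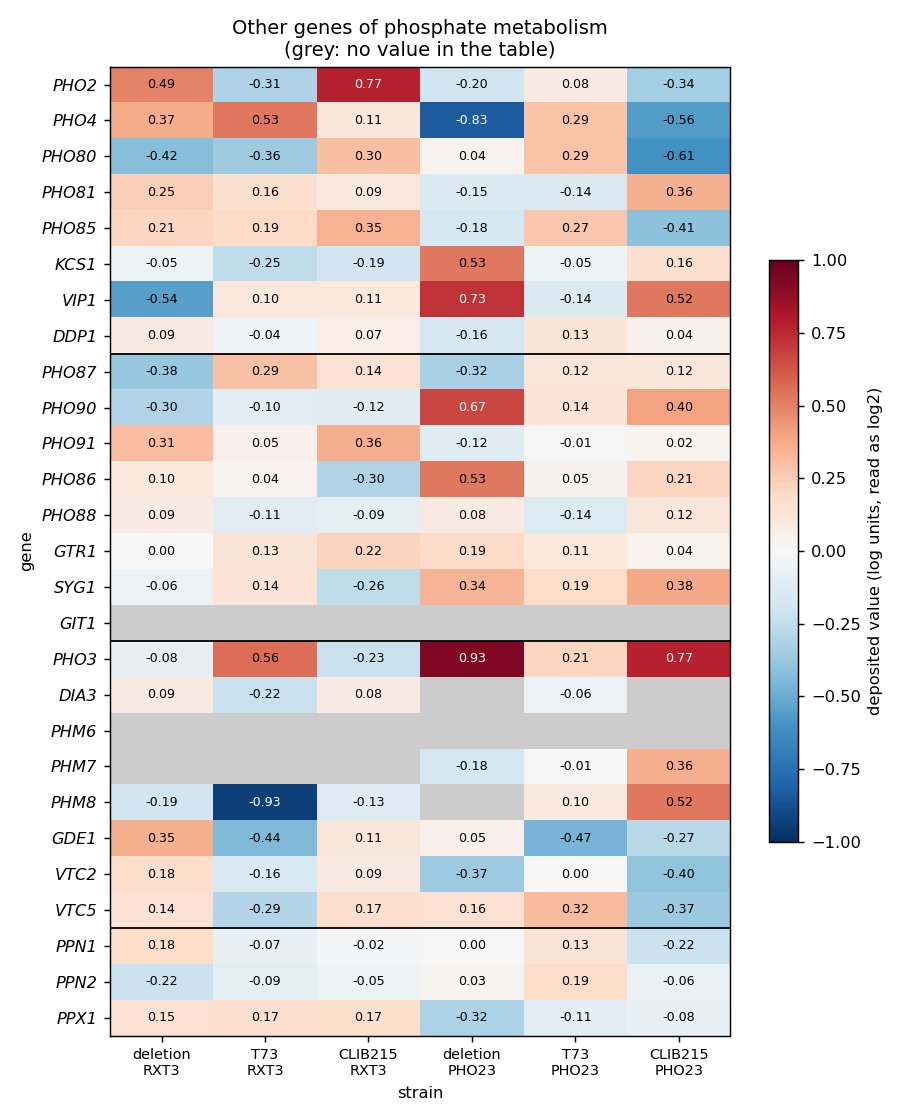
Deposited values (log units, read as log2) of 27 other genes of phosphate metabolism in the 6 strains, in blocks from top to bottom for signalling, transport and trafficking, phosphate-responsive genes and polyphosphatases, with grey where the table has no value. PHO4 is lowest in the PHO23 deletion, at -0.83, and PHO3 is highest there, at 0.93.

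Outside these lists, the ORFs whose profile over the 6 strains was most like that of PHO5 were DBP8, MAK5 and JJJ3. Their root mean square distances from PHO5 were 0.21, 0.21 and 0.28 units, each profile being centred on its own mean, beside 0.74 for PHO5 around its own mean. For VTC3, the complete member with the next widest range, they were TIP41, HUA2 and BRL1, at 0.08, 0.08 and 0.10 units, beside 0.31 for VTC3. These likenesses rest on 6 pooled values each and are a description.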

How the data were processed

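Messenger RNA of 18 libraries in 6 groups of 3 was profiled. Per the labels' protocols, RNA was fragmented, polyadenylated pieces were captured with oligo-dT beads, and cDNA was primed with barcodes and unique molecular identifiers. Per the submitters' processing notes, Bowtie and build R64 were used, with no version of Bowtie. The authors deposited 1 table of log values, 1 column per group, read here as log2 values, since they are relative values around 0 whose base is not stated. The sources used here give neither the base, the normalization and the pooling of replicates nor the minimum for a value. Depth per library is unknown.

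Columns were assigned to groups by the shared start of the sample titles. Differences were taken between columns over ORFs with a value in both, with a size rule of 1 unit and no test, since there are no counts and no replicate columns, in place of the count model planned for that case. The members and lists were chosen with earlier results of these data known. Named genes are the members, the genes of the lists, and for the 2 complete members with the widest range the 3 complete ORFs nearest in profile. Alternatives were column names from the genotype field, complete ORFs only, median-centred columns, columns brought to 1 SD, PHO11 and PHO12 left out, and a size rule of 0.5 units. The listed genes under the genotype field's names were added after seeing the data. The counting of differences was tested on simulated data. Positions and sequences come from RefSeq R64. Of the 49 names in the lists, 46 are also the annotation's symbols and the others were matched by ORF name. Python 3.11.15, pandas 2.3.3, numpy 2.4.6 and matplotlib 3.10.9 were used.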

Additional observations from a re-analysis of the deposited data

Results flagged for a closer look

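PHO8 differed in opposite directions at the loci under the same contrast, if the columns are named by their titles. Between the deletion and the T73 allele it differed by -0.63 at RXT3 and by 0.78 at PHO23. Between the T73 and CLIB215 alleles it differed by 0.70 at RXT3 and by -0.77 at PHO23. Each effect rests on 1 pooled value per strain, and the difference between the loci was not tested. PHO8 is marked because both effects were at least 0.5 units and had opposite signs, and both contrasts share the T73 columns. Under the genotype field's names the opposition is gone. The deletion minus T73 is then 0.07 at RXT3 and 0.62 at PHO23, and T73 minus CLIB215 is -0.86 at RXT3 and -0.77 at PHO23.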

How the results depend on the processing

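Values are called moved where they changed by over 1.5 times and by at least 0.1 units. Centring the columns on their medians moved no count or median. Bringing the columns to 1 SD moved 3 counts of members past the size rule. The count became 2 of 9 for the T73 alleles (RXT3 minus PHO23) and 1 of 6 for the RXT3 deletion minus its CLIB215 allele. It became 0 of 5 for the deletions (RXT3 minus PHO23), where PHO5 was then at -0.99. The share of all ORFs past the rule was not recomputed for these columns, so these 3 counts have no background beside them. With complete ORFs only, the count for the T73 alleles was 0 of 5, again with no share of ORFs recomputed. The medians were then 0.22 for the RXT3 alleles (T73 minus CLIB215) and -0.0606 for the RXT3 deletion minus its T73 allele. Without PHO11 and PHO12, the count for the T73 alleles was 0 of 7, beside 3.33% of ORFs, and the median was -0.12. With a size rule of 0.5 units, 4 of 5 members passed for the PHO23 deletion minus T73, beside 33.7% of ORFs. For the PHO23 deletion minus CLIB215 and the PHO23 alleles, 3 of 5 and 3 of 6 passed, beside 24.1% and 34.8%. In the same order the RXT3 comparisons gave 2 of 7, 2 of 6 and 1 of 6, beside 22.1%, 18.8% and 20.1%. Across loci, the deletions, T73 and CLIB215 alleles gave 5 of 5, 4 of 9 and 2 of 5, beside 36.2%, 21.1% and 35.2%.

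Naming the columns by the genotype field changed the most. Counts moved to 1 of 9 members for the PHO23 deletion minus T73, beside 3.33% of ORFs. They moved to 1 of 6 for the PHO23 deletion minus CLIB215, beside 6.92%. For the RXT3 deletion minus CLIB215 and the RXT3 alleles they moved to 1 of 5 each, beside 9.13% and 9.24%. For the deletions, T73 and CLIB215 alleles across loci they moved to 0 of 7, 6 and 5, beside 3.06%, 2.11% and 3.40%. The medians moved to -0.00979 and -0.0936 for the PHO23 deletion minus T73 and minus CLIB215. They moved to 0.0732, -0.612 and 0.348 for the RXT3 deletion minus T73, the RXT3 deletion minus CLIB215 and the RXT3 alleles. Across loci they moved to -0.16, -0.24 and -0.63 for the deletions, T73 and CLIB215 alleles. Of the 48 single differences of members that could be recomputed, 16 changed sign. Of these, 11 had a size of at least 0.5 units under at least 1 naming, and 1 under both. PHO5 turned to 0.15 between the deletions, to -0.37 for the PHO23 deletion minus T73 and to -1.11 for the RXT3 deletion minus CLIB215, and PHO8 turned to -0.86 between the RXT3 alleles and to -0.08 between the T73 alleles. VTC1 turned to 0.06 and 0.04 for the PHO23 deletion minus T73 and minus CLIB215. By the rule above 14 of the 48 did not move, among them PHO5 between the PHO23 alleles, whose columns both fields name alike. No paired analysis was possible because the table holds 1 column per group without replicate numbers, and no replicate could be left out for the same reason. Depth is unknown, so what it limits cannot be said.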
